A study of Mus with 6 samples.

Results

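Dlx6os1, Sfta3-ps, Emx2os and Dlx4os are long non-coding RNAs (lncRNAs) transcribed beside homeobox genes, and they are the 4 RNAs described here of 2282 named RNAs in the authors' deposited table. They were taken by name, and were chosen by measured values, with their difference between treated and untreated mice already known. That difference is therefore described below and not tested. RNA came from the right substantia nigra pars compacta, a midbrain region that holds dopaminergic neurons, of mice overexpressing human alpha-syn (A53T), an altered form of α-synuclein. All samples carry this genotype. The model group (3 samples) was injected with 0.9% sterile saline, and the AVE0991 group (3 samples) with AVE0991 at 10 mg/kg, each into the abdominal cavity daily for 30 days. The drug activates Mas, which is the receptor for the peptide angiotensin-(1-7). The sources used here do not give how the transgene is driven, the age of the mice or any pooling.

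Homeobox genes encode transcription factors that set the identity of brain regions and of the neurons born in them. The Dlx genes mark the ventral forebrain, where most GABAergic neurons of the striatum and cortex are born. Nkx2-1 acts in part of the same territory and in the hypothalamus, and Emx2 patterns the dorsal forebrain that becomes cortex and hippocampus. Dlx4 belongs to the same family as Dlx6 but is better known from the jaw skeleton and the placenta than from the brain. LncRNAs at such loci are often transcribed in the same cells as the coding gene they lie beside.

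In RefSeq's GRCm38.p6 annotation Dlx6os1 (gene ID 320038, chromosome 6) overlaps the coding gene Dlx6, and Dlx5 is the next coding gene. Its synonyms include Evf2, the name under which it is known as a transcript of a forebrain enhancer. Dlx4os (gene ID 320453, chromosome 11) overlaps Dlx4 and lies between Dlx3 and Tac4. Sfta3-ps (gene ID 104798, chromosome 12) overlaps no coding gene and lies between Mbip and Nkx2-1. RefSeq lists Nanci as its synonym and classes it as lncRNA despite the pseudogene in its symbol. Emx2os (gene ID 329078, chromosome 19) is classed as antisense RNA and lies between Pdzd8 and Emx2. Whether counting used strand is not stated in the labels. Where the genes overlap, counts of Dlx6os1 and Dlx4os may therefore include reads of Dlx6 and Dlx4, and how many was not examined. Neither those coding genes nor Nkx2-1 and Emx2 were analysed here.

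The authors' table gives group means with a test statistic per name, and whole counts for each library were worked out from these. Libraries are lettered a to c within a group, without a replicate number, and values by library are given in that order. The counts recovered by name summed to 1680662 to 2277225 per library. A separate table of 87858 NONCODE identifiers held 37036986 to 52029003 counts per sample. The labels do not say that samples came from separate animals, so a spread between samples may be technical. In the first principal component of the tested names, which held 51.3% of the variance, model library c stood apart from the other model libraries. Its position was -7.22, against -23.5 and -24.3 for model libraries a and b and 16.0 to 21.5 for the AVE0991 libraries. The fold changes of the 4 RNAs are given with and without it.

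Dlx6os1, Sfta3-ps and Emx2os were higher with AVE0991, and Dlx4os was lower. The Dlx6 and Dlx4 antisense RNAs, which belong to sister homeobox genes, thus lay on opposite sides. On the scale of normalized counts (counts divided by a library factor), the means with AVE0991 were 6.39 times the model mean for Dlx6os1, 7.98 times for Sfta3-ps and 1.70 times for Emx2os. For Dlx4os the model mean was 4.66 times the AVE0991 mean. In bulk tissue, fewer cells of a type and less RNA per cell cannot be told apart.

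The values that chose the 4 RNAs are those of the authors' deposited table. It lists mean normalized counts of 17283 with AVE0991 and 2705 in the model group for Dlx6os1, with a statistic of 8.03 on 2.96 degrees of freedom. For Sfta3-ps it lists 353 and 44.2, with a statistic of 5.28 on 2.10 degrees of freedom. For Emx2os the authors' deposited table has 628 and 369, with a statistic of 3.31 on 3.59 degrees of freedom. For Dlx4os it has 41.0 and 191, with a statistic of -3.64 on 2.23 degrees of freedom. Degrees of freedom near 2 arise where 1 group carries nearly all the spread, as the AVE0991 group did on this scale for Sfta3-ps and the model group for Dlx4os.

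Dlx6os1 had normalized counts of 14379, 19978 and 17491 with AVE0991 (libraries a to c). The model values were 2257, 1566 and 4291.5. Every AVE0991 library lay above every model library, and the lowest of the former was 3.35 times the highest of the latter. The group means were 17283 ± 2805 and 2705 ± 1417 (SD, n = 3 each), and the fitted log2 fold change was 2.73 ± 0.35 (SE). Without model library c it was 3.22. These counts were 0.749% to 1.07% of all counts recovered by name in the AVE0991 libraries and 0.0814% to 0.211% in the model libraries.

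Counting error was small beside the spread between libraries for this RNA. The coefficient of variation between model libraries was 52.4%, against 1.82% expected from counting alone. Between AVE0991 libraries it was 16.2%, against 0.775% from counting.

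Sfta3-ps, beside the ventral forebrain and hypothalamic gene Nkx2-1, had normalized counts of 458, 342 and 258 with AVE0991 (libraries a to c). The model values were 33.9, 36.7 and 61.9. The groups did not overlap, and the nearest libraries differed by a factor of 4.17. The means were 353 ± 100.005 and 44.2 ± 15.4 (SD, n = 3 each) with AVE0991 and without. The fitted log2 fold change was 3.04 ± 0.32 (SE), and 3.36 without model library c. The model values rest on 40, 41 and 67 counts. Counting alone would give a coefficient of variation of 14.2% there, against 34.9% seen.

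Emx2os, beside the dorsal forebrain gene Emx2, showed the smallest difference of the 4. Its normalized counts were 756, 564.2 and 563.6 with AVE0991 (a to c), and 336, 313 and 458 in the model libraries. The groups did not overlap, but the lowest AVE0991 library was only 1.23 times the highest model library, model c. The means were 628 ± 111 and 369 ± 78.1 (SD, n = 3 each), with a log2 fold change of 0.82 ± 0.21 (SE). Without model library c it was 1.00.

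Dlx4os was the only one of the 4 that was lower with AVE0991. It had normalized counts of 51.4, 50.0 and 21.7 with AVE0991 (a to c), against 248, 212 and 114 in the model libraries. The lowest model library, again c, was 2.21 times the highest AVE0991 library. The means were 41.0 ± 16.7 and 191 ± 69.4 (SD, n = 3 each) with AVE0991 and without, and the log2 fold change was -2.17 ± 0.40 (SE). Without model library c it was -2.44. The AVE0991 values rest on 51, 49 and 20 counts.

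**Figure D1:**
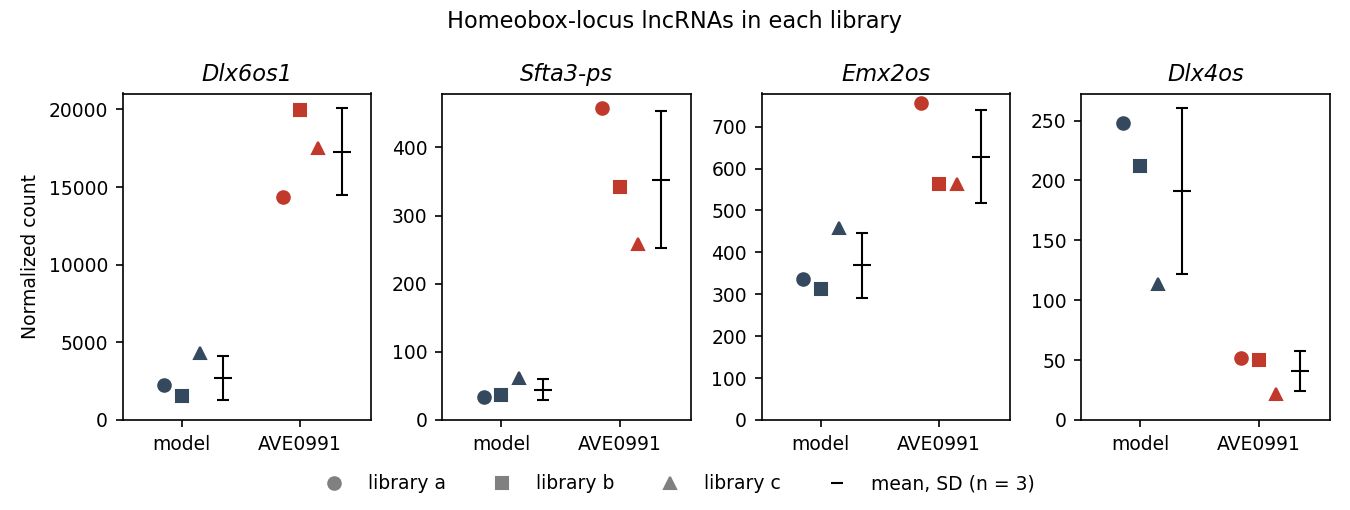
Normalized count (vertical axis, from 0, with its own range in each panel) of Dlx6os1, Sfta3-ps, Emx2os and Dlx4os in model and AVE0991 samples. Circles, squares and triangles are libraries a, b and c, and black bars are the mean and SD (n = 3). In each panel the groups do not overlap and model library c (triangle) lies nearest to the AVE0991 group.

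The groups did not overlap for 4 of 4 RNAs, against 39.0% of the 1867 named RNAs tested. The AVE0991 libraries were the higher for 3 of the 4 (16.5% of tested names) and the lower for 1 of them (22.5%). All 4 were past the threshold (p under 0.05 in edgeR's quasi-likelihood test, Benjamini-Hochberg adjusted over all tested names), against 16.0% of the tested names. These counts follow from how the RNAs were chosen, and nothing is read from them. With 1 library left out, Dlx6os1, Sfta3-ps and Dlx4os were past the threshold in 6 of 6 fits. Emx2os was past it in 1 of 6, the fit that lacked model library c. These fits reuse the values by which the 4 RNAs were chosen, so their calls are likewise only a description. Ranked by log2 fold change among the 1867 names, Sfta3-ps was number 8 and Dlx6os1 number 14 from the highest. Emx2os was number 257 from the highest, and Dlx4os number 33 from the lowest. The median over all names was -0.01.

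**Figure D2:**
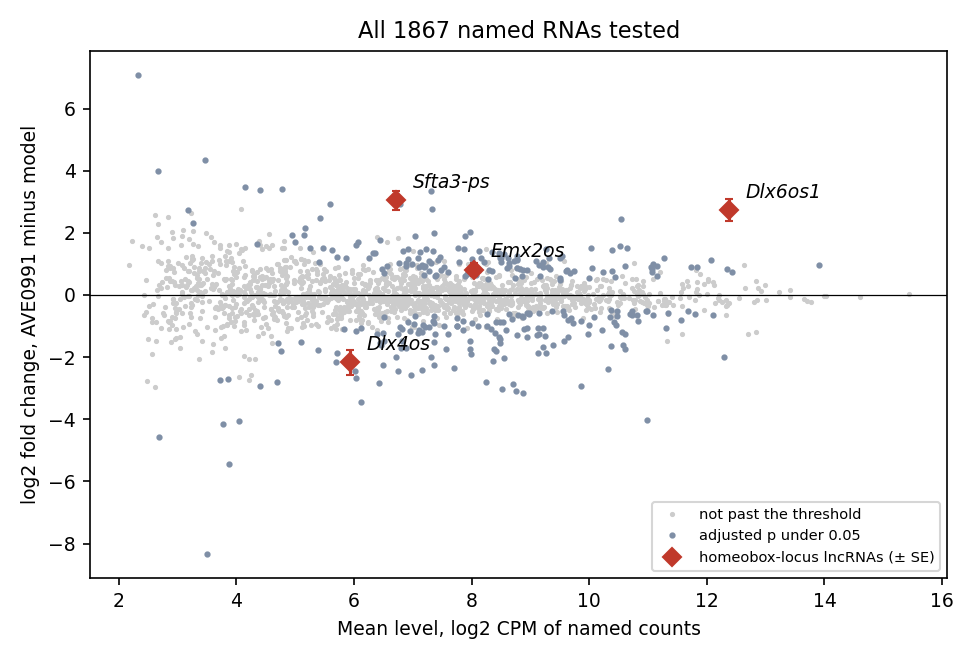
Fitted log2 fold change, AVE0991 minus model (vertical axis), against mean level in log2 CPM of named counts (horizontal axis), for 1867 named RNAs. Grey points did not pass the threshold, blue points had an adjusted p under 0.05, and red diamonds with SE bars are the 4 homeobox-locus lncRNAs. Dlx6os1 (2.73) and Sfta3-ps (3.04) lie at the upper edge, Dlx4os (-2.17) at the lower side and Emx2os (0.82) among many other points.

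The 4 RNAs shared their outermost model library. Model library c held the highest value of Dlx6os1, Sfta3-ps and Emx2os and the lowest of Dlx4os, so it was nearest to the AVE0991 group each time. On the log2(normalized count + 1) scale it deviated from the mean of the model libraries by 0.79 for Dlx6os1, 0.53 for Sfta3-ps, 0.33 for Emx2os and -0.67 for Dlx4os. Other RNAs did the same. Model library c was the nearest for 110 of 140 other named RNAs past the threshold that were higher with AVE0991 (78.6%) and for 126 of 154 that were lower (81.8%). Its part in the differences described was not tested beyond leaving it out.

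Among AVE0991 libraries Sfta3-ps, Emx2os and Dlx4os shared the order a, b, c from highest to lowest. Libraries b and c were nearly equal for Emx2os, as were a and b for Dlx4os. Dlx6os1 had the order b, c, a. Library a was the lowest for Dlx6os1 and the highest for Sfta3-ps, Emx2os and Dlx4os. Its log2 deviations from the mean of the AVE0991 libraries were -0.25 for Dlx6os1, 0.41 for Sfta3-ps, 0.28 for Emx2os and 0.42 for Dlx4os. Library c was the lowest for Dlx4os, with a deviation of -0.79. The AVE0991 library with the highest Sfta3-ps thus had the lowest Dlx6os1.

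**Figure D3:**
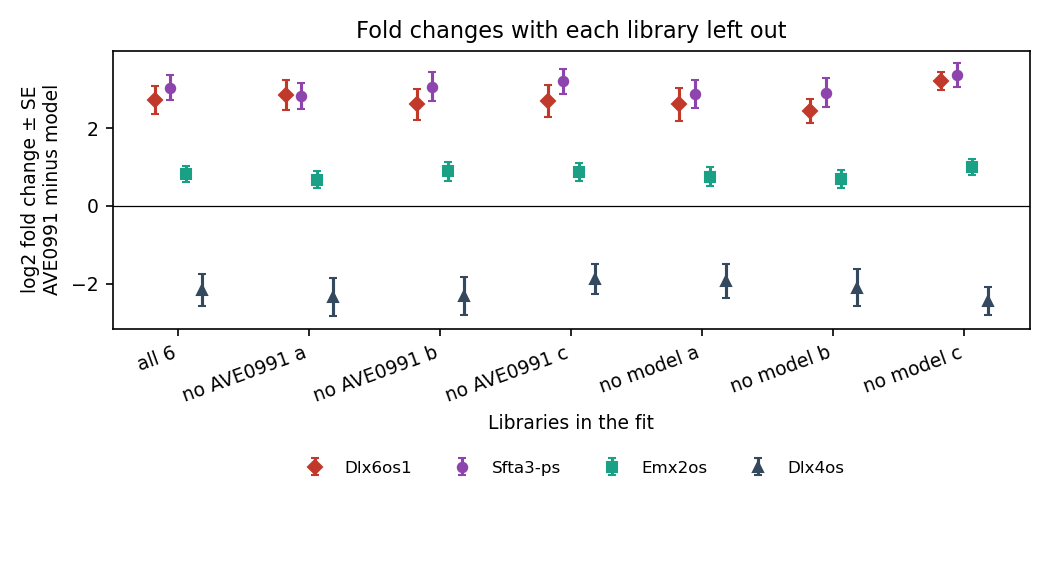
Fitted log2 fold change ± SE, AVE0991 minus model (vertical axis), of the 4 lncRNAs with all 6 libraries and with each library left out (horizontal axis). The values of Dlx6os1 run from 2.44 to 3.22, of Sfta3-ps from 2.83 to 3.36, of Emx2os from 0.68 to 1.00 and of Dlx4os from -2.44 to -1.89, and the values farthest from 0 are those without model library c.

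Other named RNAs near the 4 loci were examined next. The table held 13 such names, 11 of them within 1 Mb of Dlx6os1, Dlx4os, Sfta3-ps or Emx2os in RefSeq and 2 the nearest beyond that distance. Of these 13, 9 had enough counts for the test, and 0 of 9 passed in the edgeR quasi-likelihood test. None had an unadjusted p under 0.05 by edgeR, and 0 passed with DESeq2 or limma-voom. Their log2 fold changes ran from -0.83 to 0.31, and the smallest adjusted p by edgeR was 0.391. A value short of the threshold does not show that levels were alike, and the difference between each of the 4 RNAs and its neighbours was not tested.

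Beside Dlx6os1, 1700019G24Rik had normalized counts of 711, 1013 and 1199 with AVE0991 (a to c) and 937, 822 and 878 in the model libraries. Those groups overlapped, and the log2 fold change was 0.20 ± 0.22 (SE), against 2.73 for Dlx6os1. A430035B10Rik, on the other side and more than 1 Mb away, had a log2 fold change of -0.06 ± 0.22 (SE).

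On the Nkx2-1 side of Sfta3-ps, C87198 had 76.6, 104 and 93.4 normalized counts with AVE0991 (a to c) and 90.8, 116 and 163 in the model libraries. Its log2 fold change was -0.38 ± 0.29 (SE), while that of Sfta3-ps was 3.04. Gm19990, on the Mbip side, had at most 21 counts in any library and a log2 fold change of -0.83 ± 1.05 (SE), too wide to place it.

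Around Dlx4os, 4833417C18Rik, Gm11520 and Zfp652os had log2 fold changes of -0.48 ± 0.34, -0.42 ± 1.02 and 0.31 ± 0.27 (SE), against -2.17 for Dlx4os. 4930405D11Rik, the nearest name on the other side, had -0.16 ± 0.37 (SE). Each of these overlapped between groups. Beside Emx2os, E330013P04Rik had 369, 340 and 342 normalized counts with AVE0991 (a to c) and 417, 435 and 389 in the model libraries. It lay lower in every AVE0991 library, opposite to Emx2os, with a log2 fold change of -0.19 ± 0.16 (SE). Gm20619, 1810007D17Rik, 2700089I24Rik and 1810018F18Rik had too few counts, or none, to test.

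A list of RNAs assigned by hand to other forebrain loci gives the setting for the 4. Of 11 tested, 4 rose with AVE0991 (edgeR, adjusted p under 0.05), none fell and 7 did not pass; the median log2 fold change was 0.67, against -0.01 for all 1867 names. Over all tested names 7.66% were past the threshold and higher. Among the 4 that rose were Sox1ot, 2610316D01Rik and Zeb2os. The list is not confined to homeobox loci or to loci active only in the forebrain: Sox1ot and Sox2ot, for instance, overlap Sox1 and Sox2. RefSeq places 2610316D01Rik beside Pcdh10, and without it 3 of 10 rose with a median of 0.57. With 1 AVE0991 library left out (a to c), 3, 2 and 2 of the list rose, and with 1 model library left out (a to c), 2, 1 and 7. The list was written with earlier results known, and nothing particular to it follows from these counts.

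Sox1ot, which overlaps the neural progenitor gene Sox1, had 3548, 3095.5 and 4391 normalized counts with AVE0991 (a to c) and 1140.2, 1315 and 1769 in the model libraries. Its log2 fold change was 1.44 ± 0.21 (SE; adjusted p = 0.00404, edgeR). Zeb2os overlaps Zeb2, which acts in cortical interneurons born in the Nkx2-1 territory, and had a log2 fold change of 0.78 ± 0.17 (SE). Its call was lost in 4 of 11 alternatives, at adjusted p of up to 0.0935 (edgeR), all of them fits that lacked a library.

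Among those that did not pass were Pantr1 and Pantr2, which flank Pou3f3, with log2 fold changes of 0.67 ± 0.21 and 0.47 ± 0.17 (SE). Pantr1 passed with library totals, DESeq2, limma-voom and without model library c, and Pantr2 with DESeq2 and without model library c. A830082K12Rik, across Nr2f1, had 0.42 ± 0.20 and passed in 1 of 11 alternatives, without model library c, while Sox2ot, C130071C03Rik and Nkx2-2os had -0.17 ± 0.17, -0.26 ± 0.14 and -0.53 ± 0.22. Nkx2-2os, at a ventral homeobox locus of the same family as Nkx2-1, thus lay on the other side from Sfta3-ps. Six3os1 overlaps the anterior forebrain and hypothalamic gene Six3, and had a log2 fold change of 0.86 ± 0.65 (SE) with overlapping groups. Dlx1as and Dlx6os2, the other antisense RNAs of Dlx loci on the list, were not among the named RNAs under those names.

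A list of RNAs assigned to loci of the diencephalon, midbrain and hindbrain outside the Hox clusters held calls in the direction of Dlx4os. Regions were assigned by hand, and a locus can be active in several of them. This list and the forebrain list therefore do not separate the forebrain from other regions. Of 8 tested, 4 fell, none rose and 4 did not pass, with a median log2 fold change of -0.45; 8.30% of all tested names were past the threshold and lower. Those that fell were Lhx1os, Paupar, Otx2os1 and Prox1os. Dropping AVE0991 library b left 2 of the 8 lower, as did dropping either of the model libraries a and b. This list too was written with earlier results known, and nothing particular to it follows from these counts. Paupar, beside Pax6, had 92.7, 93.9 and 66.2 normalized counts with AVE0991 (a to c), against 423, 499 and 471 in the model libraries. Model library c was not the nearest to the AVE0991 group for this RNA, unlike for the 4 homeobox-locus lncRNAs. Pax6os1, which overlaps Pax6, did not pass, with a log2 fold change of -0.33 ± 0.16 (SE). Its mean normalized counts were far higher than those of Paupar, at 3365 with AVE0991 and 4371 in the model group. The call of Prox1os, across Prox1, was lost in 8 of 11 alternatives, and that of Otx2os1 in 4 (adjusted p up to 0.157 and 0.125, edgeR), while the log2 fold changes were 0.02 ± 0.13 (SE) for Rmst and 0.25 ± 0.18 (SE) for Evx1os.

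Of 6 tested RNAs of the Hox clusters, whose genes are active in the hindbrain and spinal cord and not in the forebrain, Hotairm1 fell and 5 did not pass. The median was -1.55, on low counts. Hotairm1 had normalized counts of 34.3, 17.3 and 13.0 with AVE0991 (a to c) and 73.8, 87.7 and 74.9 in the model libraries. This call was lost in 4 fits with a library left out, either of AVE0991 b and c, or either of model a and b (adjusted p up to 0.0911, edgeR), and without AVE0991 library a 3 of the 6 fell. Of 11 tested names built from a homeobox gene symbol, other than the 4 described, 1 rose, 3 fell and 7 did not pass. These 4 calls became 5, 1 and 2 with 1 AVE0991 library left out (a to c) and 1, 1 and 3 with 1 model library left out (a to c). Counting each RNA of all these lists a single time, 4 of 25 rose and 5 fell, which is 36.0% changed against 16.0% of all tested names. This count was 3, 4, 4 and 5 without model library b, model library a, AVE0991 library b and AVE0991 library c. All of these lists were written with earlier results known, and nothing particular to them follows from these counts.

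**Figure D4:**
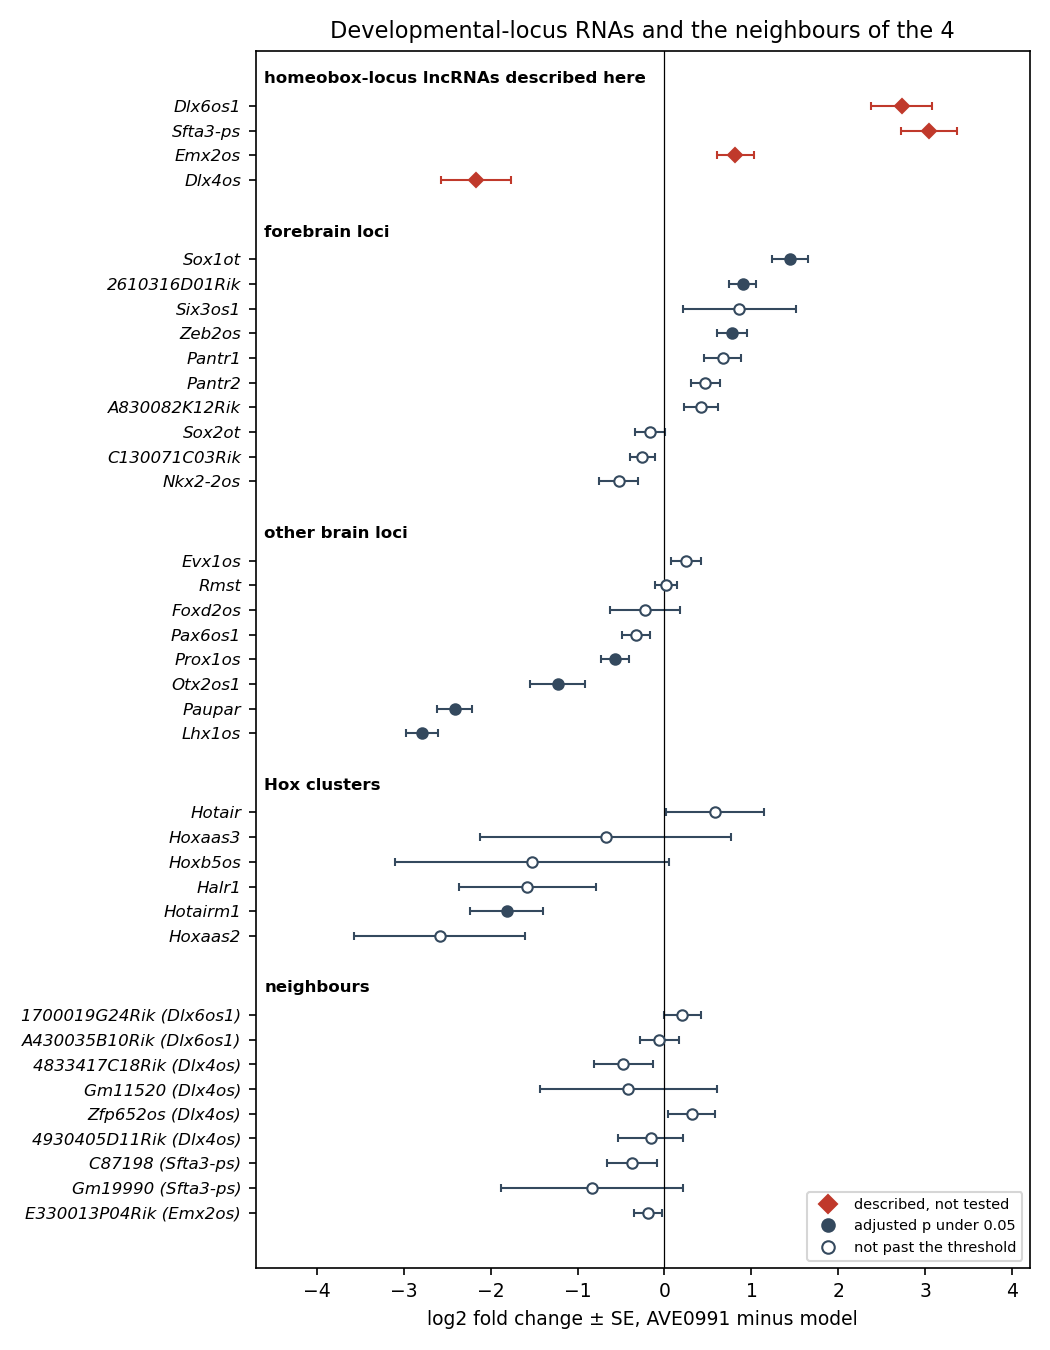
Fitted log2 fold change ± SE, AVE0991 minus model (horizontal axis), of the 4 homeobox-locus lncRNAs (red diamonds) and of RNAs listed by hand under forebrain, other brain and Hox loci. Named RNAs near the 4 loci are also drawn, with the lncRNA they neighbour in brackets. Filled circles had an adjusted p under 0.05 and open circles did not pass; 3 of the 10 forebrain-list RNAs drawn are filled on the right (2610316D01Rik included), 4 of 8 of the other brain list on the left, and none of the 9 neighbours is filled.

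Markers of cell types and regions could be read only in part, since the table holds few coding genes. Of 13 marker lists, 9 had no member in the table, among them the lists for dopaminergic neurons, GABAergic neurons, the forebrain GABAergic lineage and striatal projection neurons. The labelled tissue was therefore not checked against its defining markers. The hypothalamus list had 1 of 6 members, Six3os1, at 13.1 to 31.5 normalized counts in the AVE0991 libraries and 6.47 to 20.6 in those of the model. The hindbrain list had 3 of 6, with sums of 13.0 to 164 and 165 to 248. Of these, Hoxaas3 was at 0 in AVE0991 libraries b and c and Hoxaas2 in AVE0991 library c. Hoxaas3 had its highest value, 105, in AVE0991 library a, and was at 11.9 in model library a. Its groups overlapped, with a log2 fold change of -0.68 ± 1.44 (SE). The choroid plexus and ependyma list had 1 of 3, Otx2os1, at 76.5 to 137 and 168 to 309, and the oligodendrocyte list 1 of 4, Neat1, at 7062 to 19409.6 and 10473 to 13566. The hindbrain sums did not overlap by a narrow margin, between AVE0991 library a and model library a. Those sums and the Otx2os1 levels lay on the side of Dlx4os, opposite to Dlx6os1; their part in the differences described was not tested.

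The RNAs whose pattern over the 6 libraries was most like each of the 4 were named by Pearson's r of log2(normalized count + 1), as a description over 6 values. All values come from the same 6 libraries, and a gap between the groups by itself gives a high r. Of 1855 other names with a mean of at least 10 normalized counts, 161 had an r of at least 0.9 with Dlx6os1, 134 with Sfta3-ps, 133 with Emx2os and 173 with Dlx4os. Among the 4, r was 0.96 between Dlx6os1 and Sfta3-ps, 0.91 between Dlx6os1 and Emx2os and 0.95 between Sfta3-ps and Emx2os. Dlx4os had an r of -0.93, -0.88 and -0.83 with Dlx6os1, Sfta3-ps and Emx2os.

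Most like Dlx6os1 were Gm15413, 4921511I17Rik and Gm12128 (r = 1.00 each, rounded). Gm15413 had 894, 1008 and 956 normalized counts with AVE0991 (a to c) and 359, 307 and 496 in the model libraries. It followed the order of Dlx6os1 in both groups, and its log2 fold change was smaller, at 1.35 ± 0.21 (SE). Most like Sfta3-ps were 1810007C17Rik, Gm6416 and AU023762 (r = 0.99 each). Of these, Gm6416 had a log2 fold change of 2.75 ± 0.33 (SE), near that of Sfta3-ps, with 720, 536 and 317 normalized counts with AVE0991 and 58.5, 78.8 and 103 in the model group. Most like Emx2os were AI504432, Gm6260 and 4930587E11Rik (r = 0.99 each), with log2 fold changes of 0.52, 1.17 and 0.91. Most like Dlx4os were Gm15638, 6820431F20Rik and the miRNA locus Mir30d (r = 0.99 each), with log2 fold changes of -1.25, -0.27 and -0.81.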

How the data were processed

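RNA was isolated with TRIzol and reads were checked with FastQC and trimmed with Fastp, per the labels' protocols. The submitters' processing notes list STAR 2.7.7a and DESeq2 1.10.1, with mm9 as build; they do not name the counting program or annotation. The authors deposited whole-number counts per NONCODE identifier, used here for depth only. Their deposited table by name gives a mean signal per group (normalized counts), a score (the test statistic, the difference and its limits), degrees of freedom, a p-value, a ratio and a log2 ratio, per the file headers.

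Each group mean is a mean of 3 whole counts divided by library factors, and the statistic and degrees of freedom give the variances. Exactly 1 set of counts gave back both the mean (relative tolerance 1e-09) and variance (1e-06) for 2240 of 2247 names above 0; 3 had several and 4 lay above the level solved. Of 2232 simulated names solved, 2232 matched. Library factors ran from 0.921 to 1.18.

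Recovered counts were tested with edgeR 4.0.16 (quasi-likelihood, TMM, filterByExpr, R 4.3.3), adjusted over 1867 names. Checked on simulated data (1832 tested), 48.1% of 79 names changed 2-fold and 89.3% of 112 changed 4-fold were called, and 4.17% of calls were unchanged names. Each SE is the log2 fold change over the root of the F statistic. Alternatives were DESeq2 1.42.0, limma-voom (limma 3.58.1), other scalings, no filter and each library left out. RefSeq (GRCm38.p6) matched 2270 names and was used for class, chromosome and order. The 4 RNAs, the lists and the tests were chosen with earlier results of these data known. RNAs named are the 4, listed RNAs past the threshold and up to 4 others per list by level, the neighbours, and the 3 most alike names per RNA; other listed RNAs were named after their values were seen. 1 listed RNA that rose is included in the counts but is not reported here by itself. Promoter motifs were not analysed here.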

Additional observations from a re-analysis of the deposited data

How the results depend on the processing

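The log2 fold changes of Dlx6os1, Sfta3-ps, Emx2os and Dlx4os kept their direction in every alternative run and moved by less than 1 SD between libraries. With another scaling, no filter, DESeq2 or limma-voom they ran from 2.74 to 2.84 for Dlx6os1, 3.05 to 3.07 for Sfta3-ps, 0.83 to 0.84 for Emx2os and -2.16 to -2.15 for Dlx4os. The number of named RNAs past the threshold was 298 (143 higher, 155 lower). It was 184 with a 2-fold minimum and 93 to 417 with a library left out: for libraries a to c, 142, 153 and 149 with an AVE0991 library out and 112, 93 and 417 with a model library out. By the p-values of the authors' deposited table, adjusted here, it was 0 (smallest 0.0811; 423 names at an unadjusted p under 0.05); the cause was not tested. With DESeq2 it was 404 and with limma-voom 334. The 9 listed RNAs past the threshold became 3 to 11 with a library left out. Of these 9, Lhx1os, Paupar and Sox1ot kept their call in all 11 alternatives, 5 lost it only where a library was left out, and Prox1os lost it in others as well; none changed sign. The neighbours had 0 past the threshold in every fit; those fits were added after seeing the data. No paired analysis was possible because the recovered libraries carry no replicate numbers. Where counts were lowest, the coefficient of variation expected from counting alone was 14.2% for Sfta3-ps in the model group and 15.8% for Dlx4os with AVE0991, below the 34.9% and 40.8% between libraries.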
